A study of Mus musculus with 23 samples.

Results

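The genes described here are 9 genes of myelin and of the oligodendrocyte, the glial cell that makes myelin in the central nervous system: Mbp, Mog, Mag, Mobp, Cnp, Mal, Cldn11, Olig1 and Olig2. They were found by their symbol in the array's gene name column, and they hold 11 of the 31395 rows of the deposited log2 table, and 9 of its 29897 gene names. Mbp and Mobp have 2 rows each, every other member has 1, and the 11 rows were made from 13 probes. All 13 probes passed the study's filter on dim probes, and each was well above background and unsaturated on all 23 arrays.

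The arrays measured RNA from 3 brain regions of female C57BL/6 mice, 5 weeks old by their labels, which then had 8 weeks of diet and an 11-day battery of feeding and nest building tests. Mice of the standard chow group (SC, labeled lean) received chow, and mice of the chocolate mixture group (CM, labeled obese) chose freely between the same chow and the mixture. SC mice also met the mixture in the limited access sessions of the battery, so the comparison is between long access and brief access. All mice were housed singly. There were 4 SC and 3 CM arrays of frontal cortex (FC), 4 SC and 4 CM arrays of striatum (ST), and 4 SC and 4 CM arrays of the third region. That region is called hypothalamus (HT) in the study and thalamic region in its labels, and HT is kept here. The same mice gave the regions, SC mice being named L52, L54, L56 and L58, and CM mice O52, O54, O56 and O58 (the FC of O52 was not analyzed here).

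Oligodendrocytes wrap axons in many layers of their own membrane, and the wrapped sheath lets nerve impulses jump from node to node. The sheath is held together by a small number of very abundant proteins, whose mRNAs are among the most abundant of white matter. Mbp (myelin basic protein) glues the cytoplasmic faces of the membrane, and Cnp keeps cytoplasmic channels open in the sheath. Mobp is a further protein of compact myelin, Mag lies on the innermost wrap against the axon, and Mog lies on the outermost surface. Mal is a membrane protein that takes part in the sorting of myelin lipids and proteins, and Cldn11 forms the tight junctions between the wraps. Olig1 and Olig2 are basic helix-loop-helix transcription factors that set and keep the oligodendrocyte lineage, and they are also made by precursor cells that have not yet formed myelin. Deep white matter tracts run through and beside the striatum and hypothalamus, and the gray matter of the cortex holds less myelin.

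The upstream sequences of 3 members are shown because the signals of these and most other members moved together across the arrays, as described further down. They are the 250 bases before a RefSeq transcript start (GRCm38.p6), 5′ to 3′ on the strand of the gene. Capitals mark every match to 1 of 7 short motifs searched on both strands. These were the E-box cores CAGCTG and CATATG, which basic helix-loop-helix factors such as Olig2 bind, AACAAT and ACAAAG, which SOX factors bind, CTGGNAC, the core bound by the myelin regulator Myrf, the TATA box TATAAA, and the GC box GGGCGG. A capital run of another spelling is the reverse complement of one of them, and adjoining matches form 1 run.

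Mobp, chr9:120149492-120149741, plus strand: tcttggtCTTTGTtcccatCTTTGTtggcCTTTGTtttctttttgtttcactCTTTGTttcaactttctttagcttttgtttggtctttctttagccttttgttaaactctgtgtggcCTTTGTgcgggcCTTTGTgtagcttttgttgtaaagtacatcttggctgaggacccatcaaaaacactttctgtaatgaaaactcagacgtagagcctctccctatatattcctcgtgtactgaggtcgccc
Cnp, chr11:100574689-100574938, plus strand: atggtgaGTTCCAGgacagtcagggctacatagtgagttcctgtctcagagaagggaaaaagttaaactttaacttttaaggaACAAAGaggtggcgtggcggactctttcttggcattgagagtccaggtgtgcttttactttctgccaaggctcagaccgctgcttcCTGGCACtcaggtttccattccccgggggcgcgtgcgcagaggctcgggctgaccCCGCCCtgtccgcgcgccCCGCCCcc
Olig2, chr16:91225300-91225549, plus strand: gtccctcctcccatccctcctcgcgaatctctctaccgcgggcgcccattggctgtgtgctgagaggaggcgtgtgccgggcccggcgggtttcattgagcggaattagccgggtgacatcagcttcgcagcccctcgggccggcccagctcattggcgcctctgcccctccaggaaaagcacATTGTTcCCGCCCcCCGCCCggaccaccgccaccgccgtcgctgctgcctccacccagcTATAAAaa

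The Mobp window held ACAAAG 6 times, each time on the opposite strand, and none of the other 6 motifs. Of all 32851 promoter windows of the same length, 16.5% held ACAAAG at least once, and the Mobp window was the only 1 with 6 matches. The Cnp window held ACAAAG once, CTGGNAC 2 times and GGGCGG 2 times. Its end (100574938) lies past the annotated start of the gene (100574909), and the GGGCGG matches lie in that overlap. At least 2 matches to CTGGNAC occurred in 1.58% of all windows, and 16.1% held at least 1. The Olig2 window held AACAAT once, TATAAA once and GGGCGG 2 times, against 9.42%, 12.4% and 32.7% of all windows with at least 1 match. The 7 member genes with an entry had 9 windows between them, 3 of them for Mag. None of these windows held CAGCTG or CATATG, which 13% and 3.46% of all windows held. These matches describe letters, and no binding was measured.

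The first question was where in the brain these genes had their highest signal. On SC, the structural genes other than Mbp were higher in ST than in FC by a log2 difference between 0.90 and 1.22, and higher in HT than in FC by 0.51 to 1.09. Olig1 and Olig2 were higher in both regions than in FC as well. No member other than Mbp passed the limma test between HT and ST on SC. The values are log2 signals, so a difference of 1 is a doubling, and p-values are from limma, adjusted over all 31395 rows and called under 0.05. In tissue RNA, fewer cells of a type and less RNA per cell cannot be told apart.

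Mobp is described first. Its row NM_001039365 averages 2 probes, at chr9:120077006-120077065 and chr9:120078400-120078459 on mm9, plus strand. Its SC signals were 9.37 in L52, 10.36 in L54, 10.81 in L56 and 10.05 in L58 in FC, whereas they were 11.35, 11.16, 11.73 and 11.47 in ST and 11.66, 11.37, 11.45 and 11.07 in HT. Every ST and HT array was above every FC array, and the FC array of L52 was the lowest of the FC arrays. The fitted difference of ST minus FC was 1.19 (SE 0.25, adjusted p = 0.0047), a 2.28-fold difference, and that of HT minus FC was 1.09 (SE 0.22, adjusted p = 0.00045). The other row, NM_008614, is made from a probe farther along the gene (chr9:120085150-120085209). Its differences were 1.20 (SE 0.28, adjusted p = 0.0080) and 1.04 (SE 0.24, adjusted p = 0.0017).

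Mag, measured at chr7:31684202-31684261 on the minus strand, had signals of 13.12 in L52, 14.01 in L54, 14.41 in L56 and 14.05 in L58 in SC FC, between 14.62 and 15.15 in SC ST, and between 14.68 and 15.08 in SC HT. The groups did not overlap between FC and either other region. The difference was 0.90 (SE 0.23, adjusted p = 0.012) for ST minus FC and 0.78 (SE 0.19, adjusted p = 0.0028) for HT minus FC. Mog, the outer surface protein, measured at chr17:37148277-37148336 on the minus strand, lay between 9.87 and 10.46 in SC FC, between 10.98 and 11.79 in SC ST, and between 10.95 and 11.45 in SC HT. Its differences were 1.02 (SE 0.18, adjusted p = 0.0017) and 0.87 (SE 0.15, adjusted p = 0.00013).

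Mal and Cldn11, the sorting protein and the tight junction protein, ran with them. Their probes lie at chr2:127458976-127459035 on the minus strand and at chr3:31062922-31062981 on the plus strand. Mal lay between 13.51 and 14.41 in SC FC, between 14.79 and 15.59 in SC ST and between 14.99 and 15.43 in SC HT, with differences of 1.22 (SE 0.22, adjusted p = 0.0022) and 1.08 (SE 0.19, adjusted p = 0.00015). Cldn11 lay between 12.13 and 13.04 in SC FC, between 13.53 and 14.18 in SC ST and between 13.57 and 13.87 in SC HT, with differences of 1.20 (SE 0.20, adjusted p = 0.0014) and 1.04 (SE 0.17, adjusted p = 7.6e-05). For both genes the FC arrays stood apart from the arrays of the other regions, and L52 was again the lowest FC array.

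Cnp had the smallest HT difference of the structural genes outside Mbp, at a probe on chr11:100442617-100442676, plus strand. Its SC FC signals were 12.21 in L52, 13.42 in L54, 13.26 in L56 and 13.29 in L58, and the 4 SC HT signals were 13.91, 13.42, 13.71 and 13.75. The lowest HT array lay level with the highest FC array, and the difference was 0.51 (SE 0.18, adjusted p = 0.032). Without the FC array of L52 it was 0.36 (adjusted p = 0.067), and it was 0.75 (adjusted p = 0.18) once a fixed slide term was added. In SC ST it lay between 13.62 and 14.45, with a difference from FC of 0.92 (SE 0.22, adjusted p = 0.0080).

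The transcription factors had their highest group means in HT, on SC and on CM. Whether their order of regions differed from that of the structural genes was not tested. Their probes lie at chr16:91271799-91271858 (Olig1) and chr16:91228470-91228529 (Olig2), both on the plus strand. Olig1 lay between 12.20 and 12.47 in SC FC, between 12.87 and 13.42 in SC ST and between 13.22 and 13.54 in SC HT. Olig2 lay between 8.81 and 9.03 in SC FC, between 9.11 and 9.65 in SC ST and between 9.50 and 10.14 in SC HT. The difference of HT minus FC was 0.97 (SE 0.11, adjusted p = 1e-06) for Olig1 and 0.83 (SE 0.14, adjusted p = 8.8e-05) for Olig2, and that of ST minus FC was 0.72 (SE 0.13, adjusted p = 0.0017) and 0.53 (SE 0.16, adjusted p = 0.032). On CM, both were higher in HT than in ST, Olig1 by 0.50 (SE 0.08, adjusted p = 1.4e-05) and Olig2 by 0.41 (SE 0.10, adjusted p = 0.0013). On SC the same differences were 0.25 (SE 0.11, adjusted p = 0.12) and 0.30 (SE 0.15, adjusted p = 0.17). In each of the 4 CM mice, and in 3 of the 4 SC mice, Olig1 and Olig2 were higher in HT than in ST. All CM HT arrays were on slide 2 and all CM ST arrays on slide 1. Both genes were ordered FC, ST, HT, with the last step past the threshold on CM and not on SC. The diet difference in ST minus that in HT, which tests whether that step depended on the diet, was -0.24 (SE 0.14, adjusted p = 0.43) for Olig1 and -0.12 (SE 0.18, adjusted p = 0.83) for Olig2.

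**Figure D1:**
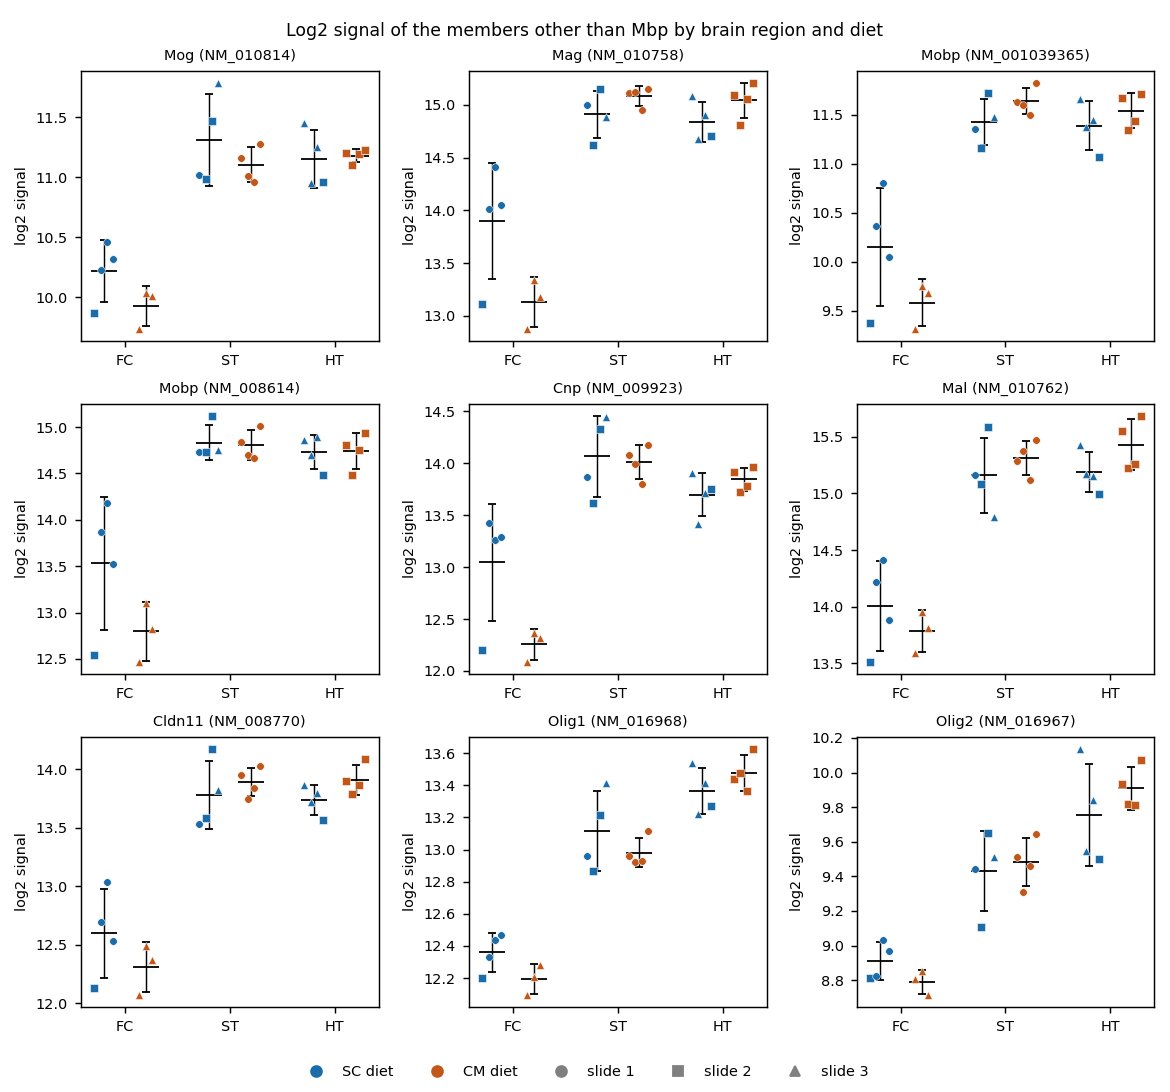
Log2 signal (y axis) of the 9 rows of the members other than Mbp by brain region (x axis), with blue points for SC and orange points for CM. Each point is 1 array, its shape gives the slide, and bars give the group mean and SD. FC has the lowest group means in every panel, and the SC FC array of mouse L52, the only FC array on slide 2, lies within or below the range of the CM FC arrays, for example at 13.12 for Mag.

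Over the 11 rows, 9 were called higher and 0 lower in ST than in FC on SC, where 7.71% and 7.22% of all rows were called. The median over the 11 rows was 0.92, against -0.00 over all rows. In HT, 9 rows were higher and 1 was lower than in FC, where 22.8% and 20.4% of all rows were called. Between HT and ST on SC, 0 rows were higher and 2 were lower, both of Mbp, where 10.7% and 10.8% of all rows were called. The count of ST minus FC was 4 when fitted with only the arrays compared, 4 without the ST array of L56, and 3 without the 2 SC ST arrays with the highest thalamus marker levels (L52 and L56). With the slide as a fixed block it was 10, and 7 rows were then called in HT minus FC and 0 in HT minus ST. Within slide 1 (1 ST array and 3 FC arrays) all 11 rows were above 0, with a median of 0.69. Within slide 2 (2 ST arrays and 1 FC array) all 11 were above 0, with a median of 1.75. That FC array was L52, the lowest SC FC array for every member other than Mbp. For HT minus FC, slide 2 held 1 array of each group, that of FC again being L52. There 10 of 11 rows were above 0, with a median of 1.44. For HT minus ST, 2 of 11 rows were above 0 within slide 2 and 4 of 11 within slide 3.

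On CM, the members other than Mbp were again higher in ST and in HT than in FC. ST exceeded FC by between 1.15 and 2.02 and HT exceeded FC by between 1.24 and 1.91 for the structural rows outside Mbp. Mag had the values 12.88 in O54, 13.34 in O56 and 13.18 in O58 in CM FC, 15.11, 15.12, 14.95 and 15.15 in CM ST, and 15.10, 14.81, 15.05 and 15.21 in CM HT. Its differences were 1.92 (SE 0.14, adjusted p = 4e-09) for ST minus FC and 1.86 (SE 0.13, adjusted p = 3.1e-10) for HT minus FC, the latter a 3.64-fold difference. In all, 10 rows were higher and 0 lower in ST than in FC (30.5% and 30.1% of all rows), 9 were higher and 1 lower in HT than in FC (29.5% and 28.2%), and 2 were higher and 2 lower in HT than in ST (30.4% and 25.9%). Each CM group lay on a slide of its own. With the slide as a fixed block, which borrows the SC arrays, 6 rows were called in ST minus FC, 10 in HT minus FC and 3 in HT minus ST.

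**Figure D2:**
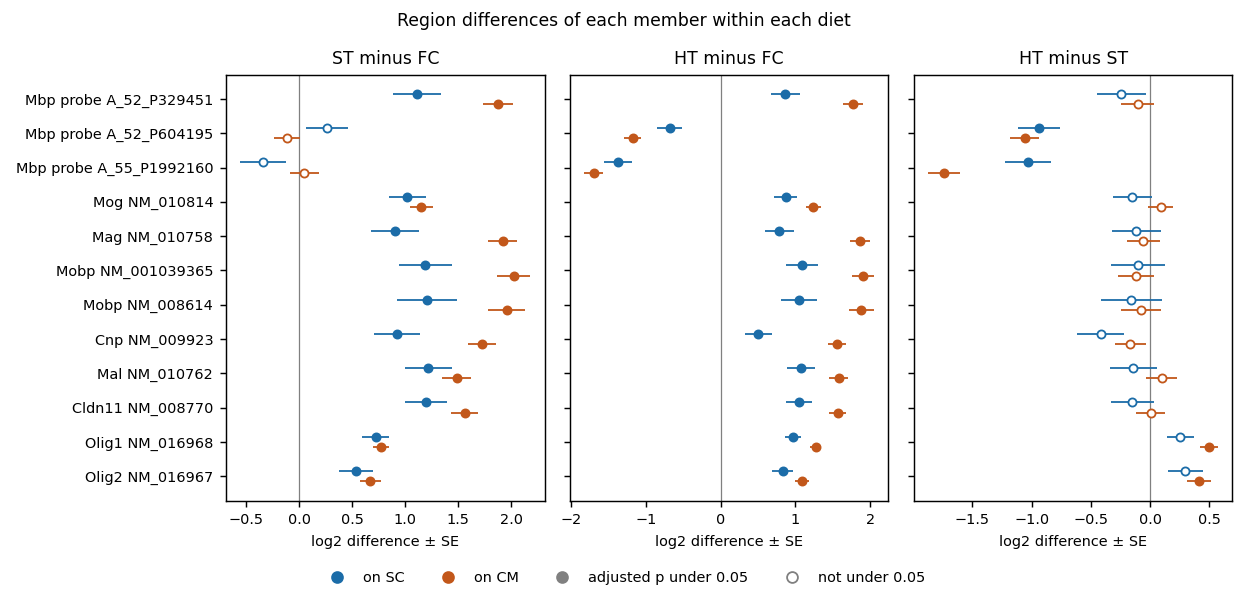
Fitted log2 difference between regions (x axis, ± SE) for each member (y axis), on SC in blue and on CM in orange, with filled points where the adjusted p was under 0.05. The structural genes and the 3′-most Mbp probe lie right of 0 against FC and near 0 in HT minus ST, for example Mag at 0.90 and 1.92 in ST minus FC, whereas the 2 other Mbp probes lie left of 0 in HT.

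Neither row of Mbp, the most studied myelin gene, followed the rest in HT, and its probes did not run together. The array has 3 probes for Mbp, all on the plus strand (mm9). A_52_P329451 spans chr18:82742266-82744570, A_52_P604195 is at chr18:82727929-82727988, and A_55_P1992160 is at chr18:82691469-82691528. The locus is known to give both the classic myelin transcripts and, from an upstream start, the golli transcripts, which are also made outside oligodendrocytes. Which transcript each probe reports was not tested. The row NM_010777 is the average of the first and the last probe, and the row NM_001025245 is the middle probe.

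A_52_P329451, the probe farthest along the gene, behaved as the other members did. Its SC signals were 12.35 in L52, 13.61 in L54, 13.58 in L56 and 13.15 in L58 in FC, 14.16, 13.94, 14.71 and 14.59 in ST, and 14.44, 14.05, 14.20 and 14.07 in HT. All ST and HT arrays were above all FC arrays. With each probe fitted on its own, it was higher in ST than in FC by 1.11 (SE 0.23, adjusted p = 0.0041) and in HT than in FC by 0.87 (SE 0.19, adjusted p = 0.0014) on SC, and by 1.88 (SE 0.14) and 1.77 (SE 0.13) on CM.

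A_55_P1992160, the probe farthest upstream, ran the other way. Its SC signals were 8.97, 8.89, 9.55 and 8.87 in FC, 8.99, 9.19, 8.63 and 8.58 in ST, and 7.66, 8.00, 7.59 and 8.10 in HT. FC and ST overlapped, and every HT array was below both. HT was lower than FC by a log2 difference of -1.37 (SE 0.19, adjusted p = 1e-05) on SC and of -1.69 (SE 0.13, adjusted p = 1e-09) on CM. ST did not pass against FC on SC (-0.34, SE 0.22, adjusted p = 0.33) or on CM (0.05, SE 0.14, adjusted p = 0.78).

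A_52_P604195 was also lowest in HT. Its signals on SC were 12.63, 12.08, 12.94 and 12.04 in FC, between 12.51 and 12.84 in ST, and 11.70, 11.61, 11.74 and 12.29 in HT, so that the HT array of L58 lay above 2 FC arrays. Its signals on CM were 12.93, 12.89 and 12.82 in FC, between 12.67 and 12.89 in ST, and between 11.57 and 11.83 in HT, and HT was lower than FC by -1.17 (SE 0.12, adjusted p = 4.4e-08) on CM and by -0.68 (SE 0.17, adjusted p = 0.0032) on SC. In the averaged row NM_010777 the opposite probes largely cancelled in HT: HT minus FC was -0.25 (SE 0.12, adjusted p = 0.10) on SC and 0.04 (SE 0.08, adjusted p = 0.70) on CM.

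**Figure D3:**
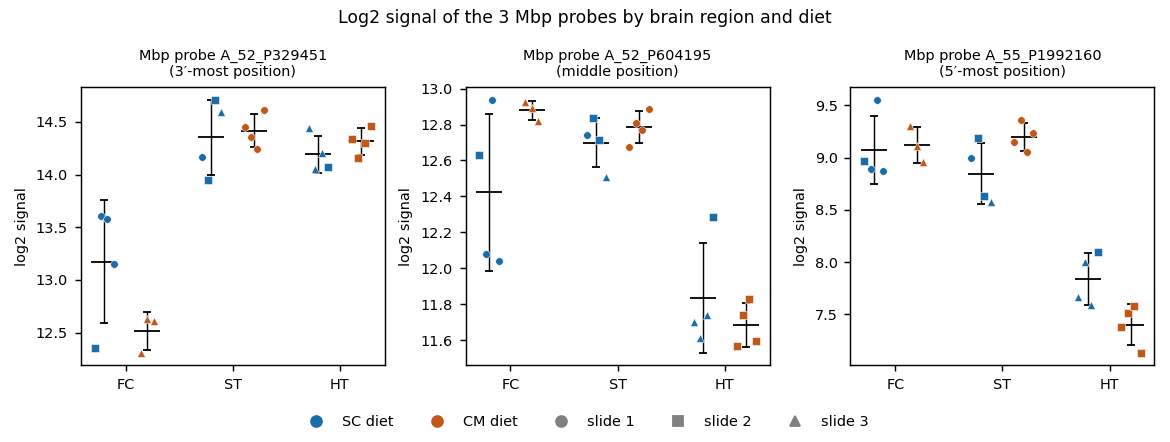
Log2 signal (y axis) of the 3 Mbp probes by brain region (x axis), each point 1 array, blue for SC and orange for CM, shape by slide, with the group mean and SD. The 3′-most probe is lowest in FC, whereas the other probes are lowest in HT, between 7.13 and 8.10 for the 5′-most probe.

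The members other than Mbp moved together from array to array. Over the 23 arrays, the Pearson r of a row with the mean profile of the 8 other genes was 0.99 for Mobp NM_001039365 and Cldn11, 0.98 for Mag and Mobp NM_008614, 0.96 for Mog and Mal, 0.94 for Cnp, 0.88 for Olig1 and 0.84 for Olig2. After each group's mean had been subtracted, r lay between 0.75 and 0.94 for the structural rows outside Mbp and was 0.69 for Olig1 and 0.63 for Olig2. For Mbp it was 0.98 for A_52_P329451 and 0.95 after subtraction, and -0.51 and -0.26 for A_55_P1992160. It was -0.41 and -0.19 for A_52_P604195, and 0.44 and 0.68 for the averaged row NM_010777. The arrays share tissue pieces and slides, so these values are descriptions. The rows outside the members most like their mean profile were Prr18, Galnt6, Hapln2 and Adamts4 (0.99), followed by Fa2h, Prr5l, Bcas1, Ttyh2, Slc34a3 and Frmd8 (0.98). After subtraction of group means they were Ndrg1, Cryab, Prr18, Tmbim1 and Hapln2, with r between 0.92 and 0.93.

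Other genes of mature oligodendrocytes had the same regional order. Of 36 rows of 34 such genes, 32 were higher and 0 lower in ST than in FC on SC, with a median of 0.94. In HT, 35 were higher and 0 lower than in FC, with a median of 0.96. The shares of all rows called higher and lower were 7.71% and 7.22% for ST, and 22.8% and 20.4% for HT. The highest differences of HT minus FC were those of Klk6, a protease of myelinating cells, at 2.01 (SE 0.32, adjusted p = 5.3e-05), and of the transcription factor Nkx6-2 at 1.78. The lowest were Omg, a glycoprotein that neurons make too, at -0.05 (SE 0.09, adjusted p = 0.67), and Josd2 at 0.43.

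Genes of the lineage and of precursors were mixed. Of 27 rows of 20 genes, 8 were higher and 1 lower in ST than in FC on SC, with a median of 0.18. In HT, 12 were higher and 2 lower than in FC, with a median of 0.32. These counts stand against 7.71% and 7.22% of all rows for ST, and 22.8% and 20.4% for HT. The 2 rows of Lhfpl3 were the highest in HT minus FC, at 1.66 and 1.27, and Tnr (-0.89) and Matn4 (-0.46) were the lowest, Matn4 not passing the test (adjusted p = 0.14). Pdgfra and Sox10 were picked after their values were seen, and a split between genes of precursors and of mature cells was not tested. Pdgfra, the growth factor receptor that defines precursors, was at 0.06 (SE 0.12, adjusted p = 0.80) in ST minus FC and at 0.41 (SE 0.10, adjusted p = 0.0025) in HT minus FC. Sox10, which mature cells keep, was at 0.79 (SE 0.19, adjusted p = 0.011) and 0.62 (SE 0.17, adjusted p = 0.0053).

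Of 14 rows of genes of the axon's node and paranode, 4 were higher and 3 lower in HT than in FC on SC, near the shares of all rows (22.8% and 20.4%), and 1 was higher in ST than in FC. The neurofilament Nefh (1.29) and Cntn2 (0.63) were highest, and the sodium channel Scn8a (-0.50) and Ank3 NM_170728 (-0.39) were lowest. Of 4 rows of Schwann cell genes, which belong to peripheral nerve, 2 were higher and 1 was lower in HT than in FC. Pmp22 was at 0.69, whereas the transcription factor Egr2, which neurons make too, was at -2.12 and Prx at -0.21 (adjusted p = 0.39).

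Markers of dissection moved with the region and also within it. All 7 striatum marker rows were higher in ST than in FC on SC, and all 12 thalamus marker rows and 7 of 9 hypothalamus marker rows were higher in HT than in FC, so the HT arrays hold signal of both the region named in the study and the one named in the labels. Cortex markers averaged between 10.03 and 11.02 on SC FC arrays and between 7.79 and 10.35 on SC ST arrays. Choroid plexus markers averaged 13.24 on the CM ST array of O58 and between 8.42 and 9.52 on the other CM ST arrays. On SC, neuron markers were lower in 3 of 7 rows in ST than in FC, and in 4 of 7 in HT, where 1 was higher. Astrocyte markers were lower in 1 of 7 rows in ST and higher in 3 of 7 in HT, and microglia markers were lower in 4 of 7 in HT and called in 0 of 7 in ST. On CM, neuron markers were lower in 6 of 7 rows in ST and in 5 of 7 in HT, astrocyte markers were higher in 3 of 7 and 5 of 7 and lower in 1 of 7 each, and microglia markers were higher in 4 of 7 in ST and lower in 7 of 7 in HT. Of all rows, 7.71% and 7.22% were called higher and lower in ST minus FC on SC, and 22.8% and 20.4% in HT minus FC. On CM these shares were 30.5% and 30.1%, and 29.5% and 28.2%. The part of other cell types and of dissection in the region differences was not tested.

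The second question was whether the diet moved these genes. In FC, 6 of the 11 rows passed the test between CM and SC, 5 lower and 1 higher on CM, where 13.2% and 15.4% of all rows were called lower and higher. With each array scaled to its 75th percentile instead, 9 were lower and 0 higher. The lower rows were Mag, Cnp, both Mobp rows and Mbp NM_010777, and the higher row was Mbp NM_001025245. In ST and HT 0 rows were called. Of the 6 calls, 0 were left with a fixed slide term and 2 with a random one, as given below.

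The difference of CM minus SC in FC was -0.92 for Mag (SE 0.17, adjusted p = 0.00078). The CM FC arrays were at 12.88, 13.34 and 13.18, and the SC FC arrays at 13.12 in L52 and between 14.01 and 14.41 in the other mice. L52 thus lay inside the CM range, and the other 3 SC arrays lay above it. Cnp was at -0.91 (SE 0.17, adjusted p = 0.00054), with 12.09, 12.36 and 12.32 on CM against 12.21 in L52 and between 13.26 and 13.42 in the other SC mice. The Mobp rows were at -0.73 (SE 0.20, adjusted p = 0.0091) and -0.90 (SE 0.22, adjusted p = 0.0045). For Mobp NM_008614 the CM arrays were at 12.47, 13.10 and 12.82, and the SC arrays at 12.54 in L52 and 13.87, 14.19 and 13.52 in the others.

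For the remaining members the difference did not pass. Mog was at -0.37 (SE 0.14, adjusted p = 0.051), Cldn11 at -0.38 (SE 0.16, adjusted p = 0.070) and Mal at -0.31 (SE 0.17, adjusted p = 0.19). Olig1 was at -0.20 (SE 0.10, adjusted p = 0.13) and Olig2 at -0.14 (SE 0.13, adjusted p = 0.43). By probe, Mbp A_52_P329451 was lower on CM by -0.80 (SE 0.18, adjusted p = 0.0023), with 12.31, 12.63 and 12.61 on CM against 12.35 in L52 and 13.61, 13.58 and 13.15 in the other SC mice. A_55_P1992160 was at -0.02 (SE 0.17, adjusted p = 0.94) and A_52_P604195 at 0.42 (SE 0.15, adjusted p = 0.048). The SC arrays of the latter lay at 12.63, 12.08, 12.94 and 12.04, on both sides of the CM arrays.

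Each array of CM FC was on slide 3, and the SC FC arrays were on slide 1, except L52, which was on slide 2, so no slide held FC arrays of both diets. Once a fixed slide term was added, 0 of 11 rows were called by limma in FC, and 2 had an unadjusted p under 0.05. Mag was then at -0.50 (SE 0.36, adjusted p = 0.86), Cnp at -0.68, Mobp at -0.54 and -0.51, Mbp NM_010777 at -0.09 and Mal at 0.06. With the slide as a random block 2 rows were called, and without array weights, or with only the FC arrays, 2. The fit gave the SC FC array of L52 a weight of 0.307, in a range from 0.222 to 2.74 over the 23 arrays. Without L52, 8 rows were called and Mag was at -1.03 (SE 0.16, adjusted p = 0.00011). The SC arrays above the CM arrays were those of slide 1, and diet and slide cannot be told apart among the FC arrays.

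**Figure D4:**
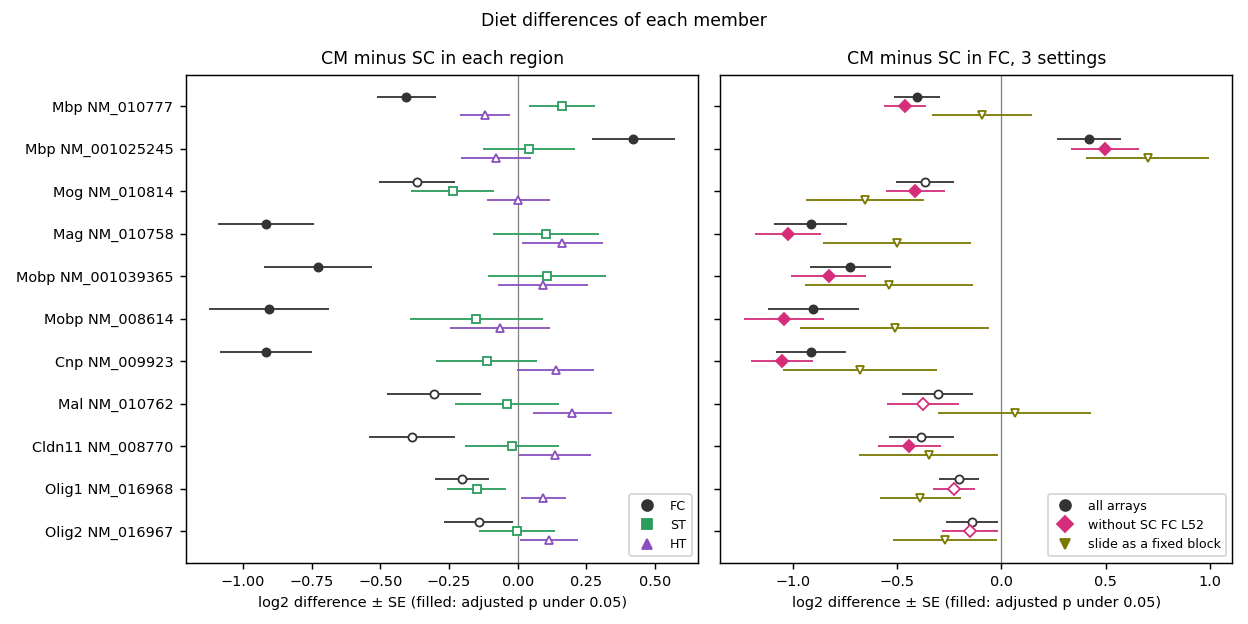
Fitted log2 difference of CM minus SC (x axis, ± SE) for each member row (y axis), in FC, ST and HT (left) and in FC with all arrays, without the SC FC array of L52, and after adding a fixed slide term (right); filled points have an adjusted p under 0.05. Filled points occur in FC only, as for Mag at -0.92, and none is filled once slides are modeled, where Mag is at -0.50.

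The FC arrays also differed in markers of striatum. The mean of the 7 striatum marker rows was 8.76 in L52, 10.47 in L54, 11.14 in L56 and 11.02 in L58 on SC, and 8.78 in O54, 9.13 in O56 and 11.05 in O58 on CM. The mean centered signal of the 9 members was -1.06, -0.50, -0.25 and -0.58 in the SC mice, and -1.11, -0.83 and -0.92 in the CM mice. The 3 arrays with little striatum signal were among those with low member signal, and O58 was low in the members with high striatum signal. In a fit of the 7 FC arrays with the striatum marker mean as a covariate, chosen after the values were seen, 0 rows were called. The fit of the same FC arrays without that covariate called 2. Mag was then at -0.61 (SE 0.26, adjusted p = 0.21) and Cnp at -0.64 (SE 0.22, adjusted p = 0.15), and 2 rows had an unadjusted p under 0.05. The part of dissection in the diet difference was not tested.

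**Figure D5:**
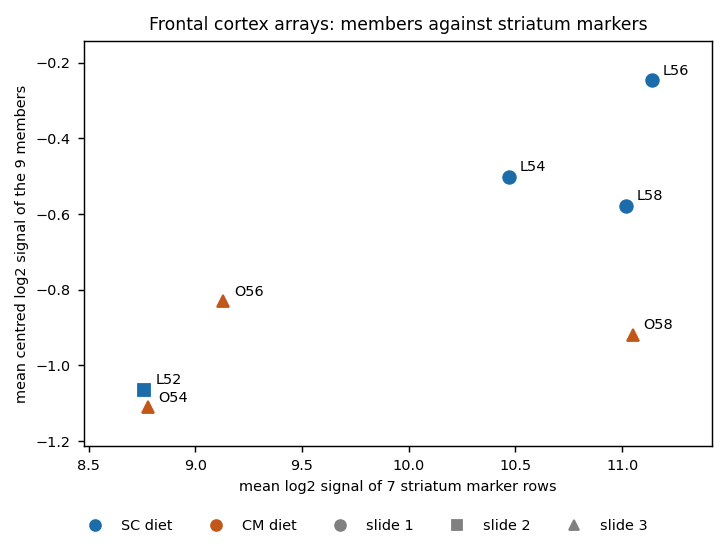
Mean centered log2 signal of the 9 members (y axis) against the mean log2 signal of 7 striatum marker rows (x axis) on the 7 FC arrays, labeled by mouse, blue for SC and orange for CM, shape by slide. L52 and O54 lie together at the lower left, at 8.76 and 8.78 on the x axis, and the SC arrays of slide 1 lie at the upper right.

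At the study's own thresholds (for FC and ST 2-fold and an adjusted p below 0.01, for HT 1.5-fold and 0.05), 0 member rows passed in FC, ST or HT, where 2.94%, 0.602% and 0.178% of all rows did. Of the other mature oligodendrocyte genes, Klk6 passed in FC, with a difference of -1.24 (SE 0.29, adjusted p = 0.0036). Of their 36 rows, 24 were lower and 0 higher on CM in FC at an adjusted p under 0.05. Of all rows, 13.2% and 15.4% were called lower and higher. The median of the 36 was -0.50, against -0.04 over all rows. No slide held FC arrays of both diets, and rows outside the members were not examined with a slide term. Of the 27 rows of lineage and precursor genes, 10 were lower and 1 was higher, within a range from -0.91 to 0.44. Sox10, picked after its values were seen, was at -0.59 (SE 0.15, adjusted p = 0.0063). Of the node and paranode rows, 2 of 14 were lower, near the 13.2% of all rows. Of 7 astrocyte marker rows 3 were lower on CM in FC, both rows of Gfap (-1.09 and -0.90) and Aldh1l1 (-0.33), with a median of 0.03, and the part of astrocytes in the FC difference was not tested.

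In ST and HT the diet difference was small. In ST the 11 rows lay between -0.24 and 0.16, with a median of -0.02, and 0 were called by limma, with the lowest adjusted p at 0.34 and 0 rows under an unadjusted p of 0.05. There 3.45% and 6.37% of all rows were called higher and lower. Mag was at 15.11, 15.12, 14.95 and 15.15 on CM and at 14.99, 14.62, 15.15 and 14.89 on SC, so that the groups overlapped, and the difference was 0.10 (SE 0.19). In HT the rows lay between -0.12 and 0.20, with a median of 0.09, and 0 were called, with 0 under an unadjusted p of 0.05, where 0.124% and 0.306% of all rows were called higher and lower. Mal had the highest difference in HT, 0.20 (SE 0.14, adjusted p = 0.60), with 15.55, 15.23, 15.26 and 15.68 on CM and 15.43, 15.17, 15.16 and 14.99 on SC. Within slide 1, which held 4 CM ST arrays and 1 SC ST array, the median over the rows was 0.09, and within slide 2, with 4 CM HT arrays and 1 SC HT array, it was 0.26.

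Whether the diet difference itself depended on the region was tested as a contrast of contrasts. The difference in FC was lower than that in ST for Mag, Cnp, Mobp NM_001039365 and Mbp NM_010777. These were 4 of 11 rows, near the 30.1% of all rows that passed in either direction. It was lower than that in HT for Mag, Cnp and both Mobp rows, where 20% of all rows passed. For Mag the values were -1.02 (SE 0.27, adjusted p = 0.0068) against ST and -1.08 (SE 0.23, adjusted p = 0.0028) against HT, and for Cnp -0.80 (SE 0.25, adjusted p = 0.022) and -1.05 (SE 0.22, adjusted p = 0.0024). Between ST and HT, 0 of 11 rows passed, and 0% of all rows did, with 0 member rows at an unadjusted p under 0.05. None of these 8 calls was made once slides were modeled, as fixed or random terms, and 1 was left without array weights. They were 4 without the SC FC array of L54 and 5 without the CM FC array of O54. The same SC FC and CM FC arrays enter both contrasts that involve FC.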

How the data were processed

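RNA of 3 brain regions was hybridized to 1-color arrays (23 arrays on 3 slides). The authors read the spots with Feature Extraction 10.7.3.1 (per the file headers, probe positions on mm9) into scanner files of intensity values, and deposited a log2 table. For that table the authors corrected background by normexp, quantile normalized, removed probes that did not exceed the negative controls' 95th percentile by a factor of 1.1 on 4 or more arrays, and averaged probes by transcript identifier. Rebuilding it from the deposited intensity values left differences from the deposited log2 values of at most 5e-09. The number of arrays limits the precision. P-values rest on the spread between arrays of the same region and diet, pooled over all groups. Each mouse gave at most 1 array per region.

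The log2 table was fitted with limma 3.58.1 (R 4.3.3, statmod 1.5.0): 6 means of region and diet, array weights, the mouse as a random block (correlation -0.04), eBayes, and Benjamini-Hochberg adjustment over 31395 rows. The fit was tested on simulated data. Groups came from the labels. Members and lists (myelin and mature oligodendrocyte, lineage and precursor, node and paranode, Schwann cell, neuron, astrocyte, microglia, endothelial, choroid plexus, cortex, striatum, hypothalamus and thalamus genes) were chosen with earlier results of these data known. All members were described, and of each other myelin list the 2 rows highest and the 2 lowest in HT minus FC on SC, with any row past the study's diet thresholds. Some rows that this rule names are not reported here. Accessions named 57.3% of rows in the RefSeq tables. Alternatives changed the slide, weights, block, arrays fitted, background, scaling, filter and probe averaging, and left out each array. The mouse as a fixed block, the striatum marker covariate, the FC fit without L52 and the fit without 2 SC ST arrays were added after seeing the data. Same-mouse deviations from the group means correlated between regions at -0.49 to 0.13.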

Additional observations from a re-analysis of the deposited data

Results flagged for a closer look

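A pair of values stood far from their group among 55 combinations of row and group with 4 arrays, where chance marks about 1 in 20. For Mobp NM_008614 the SC ST array of L56 (15.12) was separated from the next highest (14.76) by 0.924 of the group's range. For Cnp NM_009923 the SC FC array of L52 (12.21) was separated from the next lowest (13.26) by 0.872 of the range.

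The diet difference was tested between regions, and 8 of 33 tests passed by limma, 4 of 11 rows for FC against ST, 4 of 11 for FC against HT and 0 of 11 for ST against HT, where 30.1%, 20% and 0% of all rows passed. For FC against ST the count was thus near the share of all rows. The difference in FC minus that in ST was -0.57 for Mbp NM_010777 (adjusted p = 0.014), -1.02 for Mag, -0.83 for Mobp NM_001039365 (adjusted p = 0.039) and -0.80 for Cnp. The difference in FC minus that in HT was -1.08 for Mag, -0.82 for Mobp NM_001039365 (adjusted p = 0.031), -0.84 for Mobp NM_008614 (adjusted p = 0.047) and -1.05 for Cnp. In all of them the FC arrays lay on slides that held 1 diet of FC each, and 0 passed with the slide as a fixed block.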

How the results depend on the processing

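No member value changed sign while called under any alternative. Counts of called rows moved by over 1.5 times as follows, and the cause was not tested. With the slide as a fixed block, HT minus ST on SC went from 2 to 0, ST minus FC on CM from 10 to 6, the diet difference in FC from 6 to 0 and its difference between regions from 8 to 0. With the slide as a random block, the diet difference in FC gave 2 and its difference between regions 0. Without array weights these were 2 and 1. With only the arrays compared, ST minus FC on SC gave 4 in place of 9, the diet difference in FC 2 and its difference between regions 5, which was also 5 with no filter on dim probes. With the striatum marker covariate, fitted on the FC arrays alone, the diet difference in FC gave 0, against 2 for those arrays without it. Without the 2 SC ST arrays with the highest thalamus marker levels, ST minus FC on SC gave 3 and HT minus ST on SC 1.

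Leaving out 1 array at a time gave 4 to 11 rows for ST minus FC on SC (4 without the SC ST array of L56), 8 to 11 for HT minus FC on SC, 2 to 4 for HT minus ST on SC (4 without the SC ST array of L56), 10 for ST minus FC and for HT minus FC on CM, 4 for HT minus ST on CM, 4 to 8 for the diet difference in FC, 0 for that in ST, 0 for that in HT, and 4 to 11 for the difference between regions. With the mouse number as a fixed replicate block the counts were 9, 10, 2, 10, 10 and 4 for the region comparisons, in the order above, and 7, 0 and 0 for diet in FC, ST and HT, with 9 for the difference between regions. That number joins different mice of both diets. With the mouse itself as a fixed replicate block, which uses the pairing of regions within a mouse, the counts for the region comparisons were again 9, 10, 2, 10, 10 and 4, and that for the difference between regions was 11. Scaling to the 75th percentile moved the median of all rows by at most 0.11. Signal over background did not limit the members, whose probes were well above background on every array.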
